A study of Mus musculus with 6 samples.

Results

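The genes described here are 10 genes of muscle atrophy and FoxO control, taken by name from a list of genes with known roles in these processes. They were found by gene symbol among 55421 gene identifiers of the deposited tables, and each symbol matched 1 identifier. The E3 ubiquitin ligase genes were Fbxo32, Trim63, Trim54 and Fbxo30, the FoxO transcription factor genes were Foxo1, Foxo3 and Foxo4, and Mstn, Klf15 and Ddit4 encode a secreted growth inhibitor and regulators of catabolism. RNA-seq compared a line of DM1 myoblasts stably transfected with the empty vector (control, 3 libraries) with a line overexpressing miR-322/-503 (3 libraries), to ask which pathways lie downstream of these microRNAs. Both lines derived from C2C12, a mouse myoblast line that forms myotubes in low serum, both expressed GFP with 200 CUG repeats in its transcript as a model of myotonic dystrophy type 1 (DM1), and both were collected on day 4 of differentiation. The repeats lay in the 3'UTR of GFP on a plasmid, the microRNAs or nothing were carried by a second plasmid with puromycin resistance, and stable lines were selected with G418 and puromycin. Each group was its own drug-selected line, so differences that arose between the lines during selection and those due to miR-322/-503 cannot be told apart.

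FoxO factors are transcription factors that enter the nucleus when insulin, PI3K and AKT signaling is low and switch on genes of protein breakdown. In skeletal muscle the best known of these encode ubiquitin ligases, above all atrogin-1 (Fbxo32) and MuRF1 (Trim63), which mark muscle proteins for the proteasome. Myostatin (Mstn), a secreted member of the TGF-beta family, restrains muscle growth, and glucocorticoids act in the same direction, with Klf15 and Ddit4 among the genes they induce.

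The libraries held between 73532084 and 92157388 estimated counts. Each read pair contributed about 4 of them, so levels of up to 12 counts (3 read pairs) were treated as a floor, which covers counting error only. The precursor gene of miR-322 had 1, 7 and 2 counts in the control and 17, 0 and 3 with miR-322/-503, and that of miR-503 had 1, 1 and 2 against 6, 4 and 5, at or near the floor in every library. The overexpression of the microRNAs was therefore not checked by these data. The markers of differentiating myoblasts were all detected (12 of 12 above the floor in at least 1 library), and 7 rose and 1 fell with miR-322/-503, where 13.2% of all tested genes were higher and 15.5% lower at the same threshold (an adjusted p-value of 0.05 in edgeR). Their summed level was 4592 to 4958 CPM (estimated counts scaled to library size) in the control and 5837 to 6065 CPM in the miR-322/-503 libraries. Among the rises, Des (desmin) had a log2 fold change of 0.65 and Tnnt3 (fast troponin T) of 1.04, while Myog (myogenin) fell by 0.74 on the log2 scale. The part of this difference in muscle genes in the results for the atrophy genes was not tested, and fewer cells of a type and less RNA per cell cannot be told apart in bulk RNA. Markers of other cell types were low, apart from Runx2 of the osteoblast list. Of 6 leukocyte markers 4 were at or under the floor in every library, Ptprc among them, with a summed level of 2.59 to 3.92 CPM in the control and 3.86 to 4.28 CPM with miR-322/-503. Of 5 endothelial markers 3 were at or under the floor, Pecam1 and Cdh5 among them, and the sum was 1.59 to 1.98 against 3.89 to 5.57 CPM, with Tek higher. Of 5 adipocyte markers 4 were at or under the floor, Adipoq among them, and the sum was 7.33 to 9.20 against 7.98 to 10.5 CPM, nearly all of it Pparg. Of 5 osteoblast markers 1 was at or under the floor, and the sum was 56.5 to 69.4 against 57.2 to 57.8 CPM, with Alpl lower. Nearly all of this sum was Runx2, at 54.8 to 67.5 CPM in the control and 56.5 to 57.3 CPM with miR-322/-503. Alpl reached at most 1.79 CPM in a library, Bglap 0.505 and Sp7 0.189, and Ibsp had no counts. Whether these markers have a part in the results was not tested either.

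The overexpressed microRNAs are shown with their seeds (bases 2 to 8) in capitals, since the seed is the part that pairs with a target.
mmu-miR-322-5p: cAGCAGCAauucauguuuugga
mmu-miR-503-5p: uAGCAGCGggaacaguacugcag
Both mature sequences are from RefSeq (GRCm38.p6) and lie on the minus strand of chromosome X, miR-322-5p at chrX:53054306-53054327 and miR-503-5p at chrX:53054027-53054049. They share the first 6 of the 7 seed bases and differ in the last. The perfect matches to these seeds, TGCTGCT for miR-322 and CGCTGCT for miR-503, were sought on the sense strand of the longest annotated 3'UTR of each of the 10 genes. A single match was found, to miR-322, at bases 2155 to 2161 of the Fbxo30 3'UTR, shown with the match in capitals.
Fbxo30 3'UTR site: tagtatttaaaTGCTGCTgatatcactgc
Among 13487 tested genes with a 3'UTR of at least 50 bases, 30.0% held at least 1 of these 2 heptamers. No such match was present in the other 9 genes. The 6 bases common to both matches, GCTGCT, occurred once each in Fbxo32, Trim63 and Foxo3 and at 2 places in Fbxo30, and in 49.3% of these 3'UTRs overall. These letters alone say nothing about other ways of pairing or about sites in other parts of the transcript.

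Between the groups, 5 of the 9 genes that could be tested passed an adjusted p-value of 0.05 in edgeR's quasi-likelihood test, 2 higher (Trim54 and Fbxo32) and 3 lower (Foxo1, Foxo3 and Klf15) with miR-322/-503. Over all 18140 tested genes 28.8% passed, 13.2% higher and 15.5% lower. With the cut-off of the study, which also asks for a log2 fold change beyond 1 in either direction, 1 of the 9 genes remained (Klf15, lower), where 9.87% of all tested genes did, 4.59% higher and 5.29% lower. The median log2 fold change of the 9 genes was 0.10 and that of all tested genes -0.0066. Mstn had no counts in any library and was not tested. Foxo1, Foxo3 and Trim54 kept their direction and an adjusted p-value under 0.05 under all 13 alternatives of tool, scaling, filter and library, whereas Fbxo32 lost the call in 7 and Klf15 in 4 of them. The plot of CPM by library shows the values behind these counts.

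**Figure D1:**
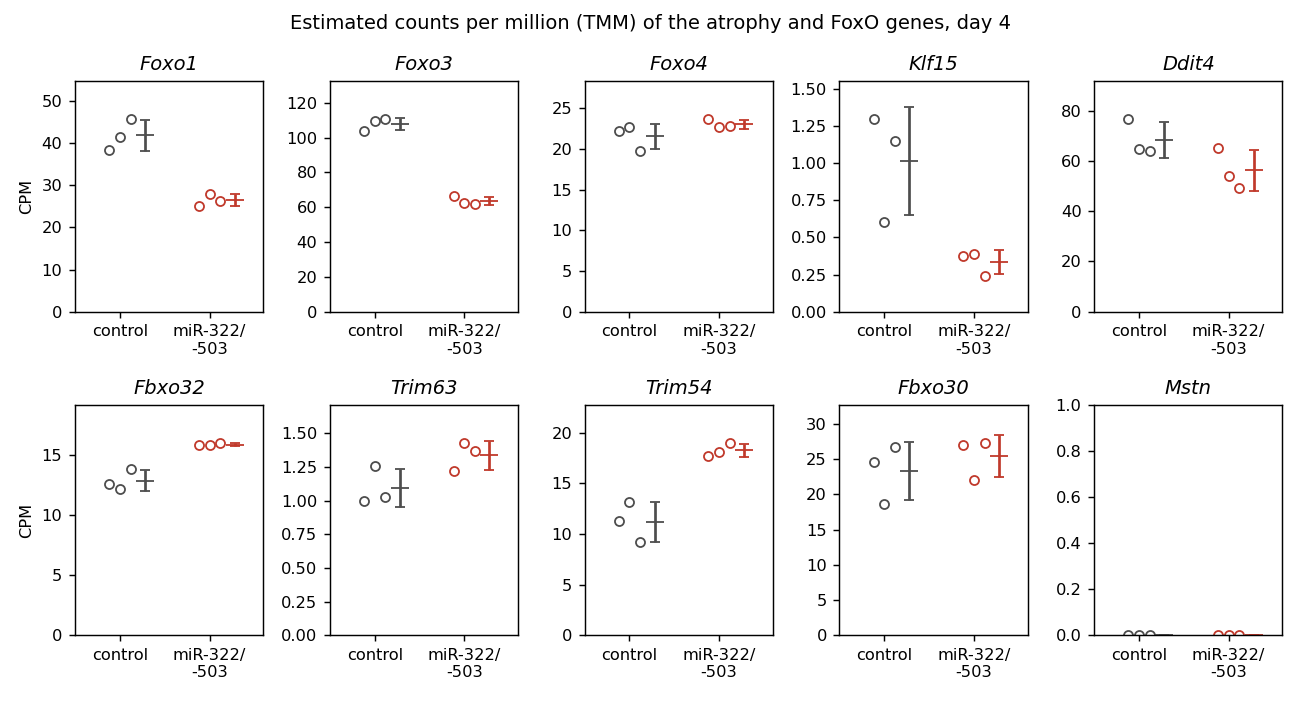
CPM after TMM normalization (y axis, each panel from 0 on its own scale) of the 10 genes in the 3 control (grey) and 3 miR-322/-503 libraries (red). Open circles are single libraries and bars show mean ± SD; Foxo1, Foxo3 and Klf15 lay lower and Fbxo32 and Trim54 higher in every miR-322/-503 library than in any control library, and Mstn was at 0 in all 6.

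Foxo3, on the minus strand of chromosome 10 (chr10:42181841-42276755, GRCm38), was the most abundant of the 3 FoxO genes and fell most among them. It had 104, 109 and 110.4 CPM in the control libraries and 66.2, 62.4 and 61.8 CPM in the miR-322/-503 libraries. Every miR-322/-503 library lay far below every control library, and the groups were separated by many times their spread. The mean fell from 108 ± 3.46 to 63.5 ± 2.42 CPM (SD, n = 3), 1.70-fold lower, a log2 fold change of -0.77 with a standard error (SE) of 0.056 and an adjusted p-value of 6.29e-05 from edgeR. Foxo1, the factor best known for metabolic target genes in liver and muscle (chr3:52268336-52353221, plus strand), fell alongside. Its level was 38.3, 41.5 and 45.5 CPM in the control and 25.1, 27.9 and 26.2 CPM with miR-322/-503. The groups did not overlap, as for 45.1% of all tested genes. The log2 fold change of Foxo1 was -0.66 (SE 0.088, adjusted p = 0.00126 in edgeR), 1.58-fold lower. The annotation places an antisense transcript (Gm20402) over exons of Foxo1, but it had no counts in any library.

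Foxo4, on the X chromosome (chrX:101254528-101260873, plus strand), did not pass the test. It had 22.2, 22.6 and 19.7 CPM in the control and 23.6, 22.6 and 22.8 CPM with miR-322/-503, and the groups lay narrowly apart, with control replicate 2 at 22.62 CPM just under miR-322/-503 replicate 2 at 22.63 CPM, while in TPM they overlapped. The log2 fold change was 0.10 (SE 0.084, adjusted p = 0.448 in edgeR). Foxo6, the remaining mouse FoxO gene, was listed among the regulators and not among the 10 genes. It was at 8.03 ± 0.940 CPM in the control and 10.5 ± 0.336 CPM with miR-322/-503 (log2 fold change 0.39, adjusted p = 0.0362 in edgeR), a call that was lost without control replicate 1 (adjusted p = 0.104), control replicate 3 (0.101) or any one of miR-322/-503 replicates 1 to 3 (0.0657, 0.0945 and 0.103), and also without the filter on low counts (0.0568) and with limma on log2(TPM + 1) (0.0610).

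Because the FoxO genes differ in length, their levels were compared in TPM, transcript levels that are scaled by length to the same sum in every library. The summed TPM of Foxo1, Foxo3 and Foxo4 was 57.7, 57.3 and 52.4 in the control libraries and 40.1, 41.0 and 36.0 in the miR-322/-503 libraries, with no overlap. Within this sum the 3 genes did not fall in proportion. Foxo3 made up 58.4%, 59.2% and 58.3% in the control and 49.9%, 45.3% and 48.9% with miR-322/-503, a difference of -10.6 percentage points between the means. The share of Foxo4 was 26.9%, 25.1% and 22.7% in the control against 36.2%, 39.6% and 36.1%, 12.4 points higher. For both shares the exact two-sided permutation test gave p = 0.1, the smallest value that 3 against 3 libraries allow. The share of Foxo1 was 16.5% ± 2.22 in the control and 14.7% ± 0.660 with miR-322/-503 (SD, n = 3, exact permutation p = 0.3). With counts divided by the summed exon length in place of TPM, the mean share of Foxo3 was 56.5% in the control and 46.5% with miR-322/-503, and that of Foxo4 was 24.5% and 36.6%. On that scale the share of Foxo1 no longer overlapped, at 18.01% to 20.62% in the control and 15.72% to 17.95% with miR-322/-503 (exact permutation p = 0.1).

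**Figure D2:**
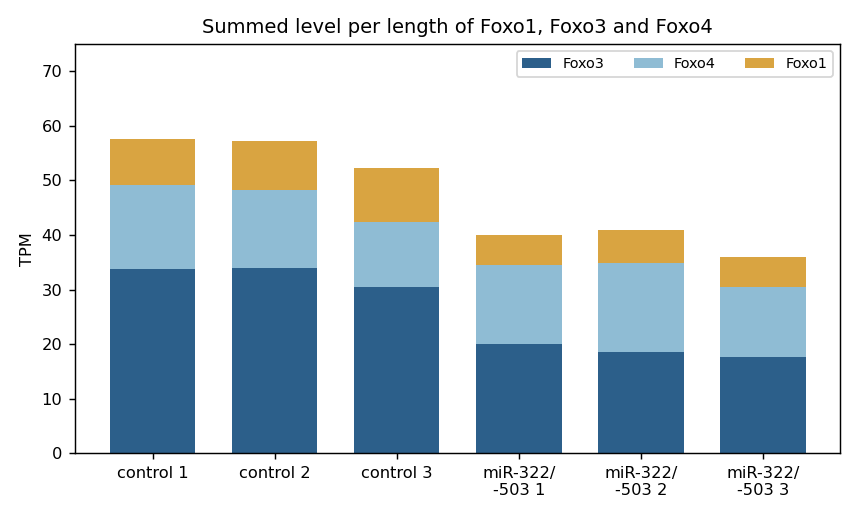
Stacked TPM (y axis, level per length) of Foxo3, Foxo4 and Foxo1 in each of the 6 libraries (x axis). The whole bars reached 52.4 to 57.7 TPM in the control and 36.0 to 41.0 TPM in the miR-322/-503 libraries, and the Foxo4 segment was similar in height in both groups.

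Ordered by TPM in the control, the 10 genes ran from Ddit4 (mean 74.0 TPM) and Foxo3 (32.7) through Trim54 (14.8), Foxo4 (13.9), Foxo1 (9.15) and Fbxo30 (8.76) to Fbxo32 (3.49), Trim63 (1.13), Klf15 (0.861) and Mstn (0). The ranges of Trim54 and Foxo4, of Foxo1 and Fbxo30, and of Trim63 and Klf15 overlapped between control libraries, so these neighbours were not separated. In the miR-322/-503 libraries Trim54 (23.8 TPM) stood above Foxo3 (18.7 TPM), Fbxo30 (9.42 TPM) stood above Foxo1 (5.71 TPM), and no neighbours in the order overlapped. The transcripts of atrogin-1 and MuRF1, the markers of muscle atrophy, were low in both groups, at under 5 TPM in each library.

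Among the 4 ubiquitin ligases of the 10 genes, Trim54 rose most. It encodes MuRF3, a RING-finger ligase of the sarcomere that binds microtubules and lies at chr5:31116712-31137630 on the plus strand. Trim54 had 11.3, 13.2 and 9.17 CPM in the control and 17.7, 18.04 and 18.95 CPM with miR-322/-503. All miR-322/-503 libraries exceeded all control libraries, and the control libraries were the more spread. The log2 fold change of Trim54 was 0.70 (SE 0.14, adjusted p = 0.00704 in edgeR), 1.63-fold higher. An antisense gene over its exons (Gm15469) had at most 36 counts in any library, against 774 or more for Trim54. The 124 tested genes within 5 Mb of Trim54 had a median log2 fold change of 0.17, with 32 of them called higher and 12 lower. The median over all 1181 tested genes of chromosome 5 was also 0.17, and the part of this in the rise was not tested.

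Fbxo32, which encodes atrogin-1, the substrate adaptor of an SCF ligase that recognizes MyoD and eIF3f, lies at chr15:58175879-58214932 on the minus strand. Its level was 12.5, 12.1 and 13.8 CPM in the control and 15.8, 15.8 and 15.9 CPM with miR-322/-503. The groups did not overlap and the miR-322/-503 libraries were almost identical, yet the difference was small, 1.23-fold (log2 fold change 0.30, SE 0.086, adjusted p = 0.0352 in edgeR). The call was lost without control replicate 1 (adjusted p = 0.104), control replicate 2 (0.101) or any one of miR-322/-503 replicates 1 to 3 (0.0862, 0.0890 and 0.0944). It was also lost without the filter on low counts (0.0619) and with limma on log2(TPM + 1) (0.161). The log2 fold change stayed between 0.23 and 0.36 throughout. An antisense transcript annotated over its exons (Gm15943) had no counts.

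Trim63 encodes MuRF1, which ubiquitinates myosin heavy chain. Its promoter was printed because it was the 1 promoter, among 8 of the 10 genes with an entry in the RefSeq table, that held the FoxO motif, and it held a glucocorticoid response element as well. The plus strand is shown at chr4:134314908-134314936 (GRCm38.p6), with both motifs in capitals, the glucocorticoid element first and the FoxO motif, read on the other strand as GTAAACA, second.
Trim63 promoter: ctctGAACAGTCTGTTCtTGTTTACgacc
The elements begin 208 and 194 bases before the start site and are parted by 1 base. Motifs were searched on both strands as GTAAACA and as GNACA and TGTNC with 3 bases of any kind between them, from 250 bases before to 50 bases after each start, and the FoxO motif was present in 3.65% and the glucocorticoid element in 0.475% of 32851 RefSeq promoters. A match describes the letters and not binding.

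With this promoter, Trim63 was expressed at 0.995, 1.26 and 1.03 CPM in the control and 1.22, 1.43 and 1.37 CPM with miR-322/-503. The groups overlapped in CPM, since control replicate 2 exceeded miR-322/-503 replicate 1, and lay narrowly apart in TPM (at most 1.268 in the control and at least 1.279 with miR-322/-503). Its log2 fold change of 0.29 (SE 0.22, adjusted p = 0.374 in edgeR) was not past the threshold. These values came from 77 to 116 estimated counts, at about 4 per read pair. The region around Trim63 had a median log2 fold change of -0.35 over 164 tested genes within 5 Mb, of which 68 were called lower and 5 higher, and the median over 1045 tested genes of chromosome 4 was -0.19. The part of this in the level of Trim63 was not tested. Fbxo30, whose product MUSA1 is a ligase adaptor restrained by BMP signaling and the only one of the 10 genes with a match to the miR-322 seed, did not pass either. It had 24.6, 18.7 and 26.7 CPM in the control and 27.0, 22.1 and 27.3 CPM with miR-322/-503, and the groups overlapped widely (log2 fold change 0.13, adjusted p = 0.592 in edgeR). Without control replicate 2, the lowest library, the log2 fold change was -0.014.

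Trim55, which encodes MuRF2, completes the MuRF family. It is not one of the 10 genes and came from a list of other atrophy ligases. Its level rose from 10.97, 11.7 and 11.5 CPM in the control to 41.8, 43.3 and 40.7 CPM with miR-322/-503, a log2 fold change of 1.88 (SE 0.074, adjusted p = 4.51e-06 in edgeR). Per length, the 3 MuRF genes together were at 25.6, 27.9 and 23.1 TPM in the control and at 58.5, 61.6 and 55.4 TPM with miR-322/-503. Trim54 made up 57.7% ± 4.90 of that sum in the control and 40.8% ± 1.75 with miR-322/-503 (SD, n = 3), Trim55 37.9% ± 4.71 and 56.8% ± 1.66, and Trim63 4.42% ± 0.449 and 2.42% ± 0.240. These shares are a description, since they were computed after the values were seen.

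**Figure D3:**
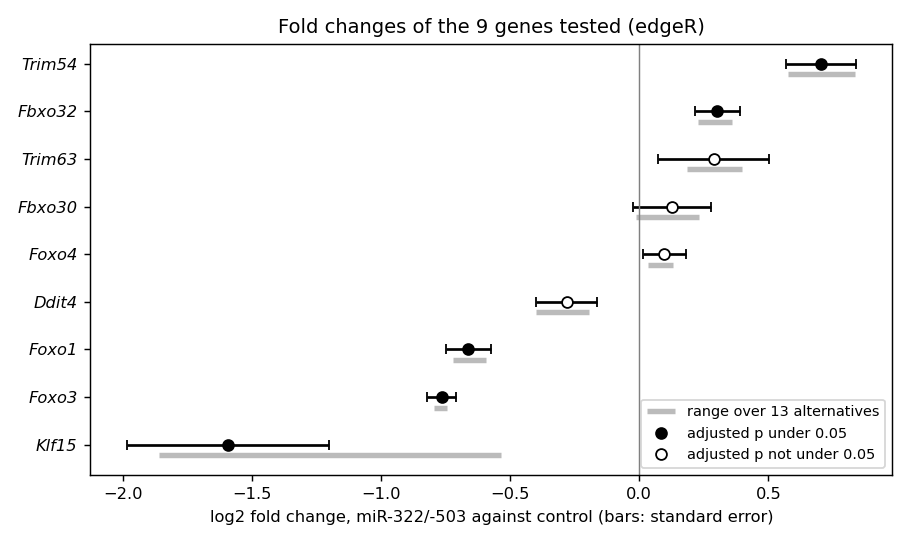
Log2 fold change of the 9 tested genes (x axis, miR-322/-503 against control) with its standard error in edgeR; filled circles mark an adjusted p-value under 0.05. Grey bars span the 13 alternatives, of which the one on log2(TPM + 1) compresses low genes such as Klf15, and Foxo3, Foxo1 and Klf15 lay left of 0 and Trim54 and Fbxo32 right of 0 over the whole of their bars.

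Klf15, a zinc-finger factor that glucocorticoids induce in muscle and that drives the breakdown of branched-chain amino acids, showed the largest fold change of the 9 genes (chr6:90462576-90475238, plus strand). It had 1.29, 0.606 and 1.15 CPM in the control and 0.378, 0.387 and 0.239 CPM with miR-322/-503. The groups did not overlap, although control replicate 2 lay closer to the miR-322/-503 libraries than to the other control libraries. The log2 fold change was -1.59 (SE 0.39, adjusted p = 0.0202 in edgeR), 3.02-fold lower. The gene was near the limit of detection, with 50 to 100 estimated counts in the control and 18 to 36 with miR-322/-503. The call was lost without control replicate 1 (adjusted p = 0.0721), control replicate 3 (0.0609) or miR-322/-503 replicate 3 (0.0636), where the log2 fold change was -1.39, -1.50 and -1.41, and on the log2(TPM + 1) scale (-0.53, adjusted p = 0.0588 in limma).

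Ddit4, or REDD1, an inhibitor of mTORC1 induced by glucocorticoids, hypoxia and energy stress, was the most abundant of the 10 genes per length, in TPM, though not in CPM, where Foxo3 was higher (chr10:59949669-59951834, minus strand). Its values were 76.5, 64.7 and 63.9 CPM in the control and 65.3, 53.9 and 49.4 CPM with miR-322/-503. The groups overlapped in that miR-322/-503 replicate 1 exceeded control replicates 2 and 3. Each miR-322/-503 library lay below the control library of the same number. The log2 fold change was -0.28 (SE 0.12, adjusted p = 0.121 in edgeR), and without miR-322/-503 replicate 1 it was -0.40 (adjusted p = 0.0311). With the replicate number as a block it was -0.29 (adjusted p = 0.0126 in edgeR). Mstn (chr1:53061640-53068079, plus strand) was at 0 counts in all 6 libraries, which allows a level of up to 0.126 to 0.160 CPM per library, or 3 read pairs, and gives no fold change.

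Genes around these 10 were counted in lists written from general knowledge, and are given beside 13.2% higher and 15.5% lower of all tested genes. Of 27 other FoxO target genes, 25 were tested, 8 were higher and 2 were lower, with a median log2 fold change of 0.14. Klf2, an endothelial and T-cell quiescence factor and FoxO1 target, had the largest rise, from 8.72 ± 0.482 to 17.2 ± 0.666 CPM (log2 fold change 0.98), followed by Txnip, the inhibitor of thioredoxin, at 0.70 (52.1 ± 9.67 to 84.7 ± 5.97 CPM). Irs2, the insulin receptor substrate that FoxO factors induce when insulin is low, fell from 13.3 ± 1.54 to 4.48 ± 0.787 CPM (log2 fold change -1.57), and Sesn1, a stress-induced inhibitor of mTORC1, fell by 0.43 on the log2 scale. The other 6 targets that rose were Bnip3, Gadd45a, Pdk4, Cited2, Ccng2 and Sod2, with log2 fold changes between 0.27 and 0.66. The other 15 tested targets were not called, among them Bnip3l, the paralogue of Bnip3, and the autophagy genes Map1lc3b and Ulk1. The counts of Map1lc3b are uncertain, as Zcchc14 on the opposite strand shares its exons (up to 5138 counts in a library). Those of Bnip3l are uncertain because of a transcribed pseudogene copy (Bnip3l-ps, up to 1669 counts). Igfbp1 and Pck1, targets in liver, had no counts.

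Of 15 further ligases linked to atrophy, 2 were higher and 4 were lower (median log2 fold change -0.06). Beside Trim55, Fbxo40, a muscle adaptor for the degradation of Irs1, rose from 0.367 ± 0.205 to 1.47 ± 0.340 CPM (log2 fold change 2.0, adjusted p = 0.0173 in edgeR, and 0.0584 without miR-322/-503 replicate 3, where 1 of the 15 was higher). Fbxo40 was near the limit of detection in the control, with 32, 45 and 12 estimated counts, the last at the floor. With miR-322/-503 it had 109, 109 and 137. Asb2, a ligase adaptor that targets filamins, fell from 16.1, 15.7 and 12.5 CPM to 2.15, 2.44 and 2.11 CPM, a log2 fold change of -2.73. Nedd4 fell by 0.34 on the log2 scale from a high level, 935 ± 18.3 to 738 ± 13.5 CPM. Without miR-322/-503 replicate 1, 2 of the 15 were lower. Few genes of the proteasome passed the test. Of 33 subunit and ubiquitin genes, 3 were higher and 1 was lower, with a median log2 fold change of 0.07 and a range from -0.25 to 0.56. Psmd8, a lid subunit, rose most (log2 fold change 0.56), Psma7 rose by 0.25 and Psma4 fell by 0.25. The call of Psma4 was lost in 5 of the 6 fits that left out 1 library, in all but the one without control replicate 3, and that of Psma7 in 5 of the 6, in all but the one without miR-322/-503 replicate 3. Psma7 also lost the call without the filter on low counts (adjusted p = 0.0515 in edgeR). Psma4 and Psma7 both lost the call with limma on log2(TPM + 1), Psma7 at an adjusted p of 0.122.

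Upstream of FoxO, 9 of 25 genes of IGF, PI3K, AKT and mTOR signaling were lower and 3 were higher (median log2 fold change 0.04). The largest falls were those of Igf2, a growth factor of differentiating myoblasts, from 17.95 ± 4.54 to 3.85 ± 0.405 CPM (log2 fold change -2.22), and Sgk3, an AKT-like kinase, from 5.87 ± 0.369 to 1.76 ± 0.232 CPM (-1.73). Igf1 went from 80.5 ± 8.30 to 26.4 ± 2.65 CPM (log2 fold change -1.61), outside the rule for named genes and given because it encodes the main ligand upstream of AKT in muscle. Irs1, the adaptor of the insulin and IGF1 receptors, rose by 0.48 on the log2 scale from 202 ± 3.0 to 282 ± 12.3 CPM, and Rptor rose by 0.24. The call of Rptor was lost without miR-322/-503 replicate 2 (adjusted p = 0.0587 in edgeR), where 1 of the 25 was higher, and with limma (0.132). The kinase genes Akt1, Akt2 and Pdpk1 were not called. Igf2 counts are uncertain, as a readthrough gene (Gm49394) and an antisense gene share its exons.

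Of 16 direct regulators of FoxO proteins, 4 were higher and 1 was lower (median log2 fold change 0.12). Prkaa2, the AMPK alpha2 subunit of muscle, fell from 8.38 ± 0.421 to 2.83 ± 0.382 CPM (log2 fold change -1.57). Ywhaq, which encodes a scaffold protein that holds phosphorylated FoxO in the cytoplasm, rose by 0.44 on the log2 scale, but its transcribed pseudogene copy (Ywhaq-ps3) makes this count uncertain. The number higher was 1 without control replicate 1 or without miR-322/-503 replicate 2 or 3, and 2 without control replicate 3.

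Of 18 tested genes for receptors, signal transducers, antagonists and relatives of myostatin, 7 were lower and 3 were higher, with a median log2 fold change of -0.20. Fst, which encodes follistatin, a secreted antagonist of myostatin and activins, had 78.7, 82.1 and 88.8 CPM in the control and 15.4, 16.1 and 16.3 CPM with miR-322/-503. The groups stood far apart, 5.22-fold (log2 fold change -2.38, SE 0.070, adjusted p = 1.31e-06 in edgeR). Tll1, a metalloprotease able to activate latent myostatin, fell from 4.06 ± 1.31 to 0.387 ± 0.0700 CPM (log2 fold change -3.38). Gdf11, the closest relative of myostatin, rose by 0.39 and the type I receptor gene Tgfbr1 by 0.29 on the log2 scale. The call of Tgfbr1 was lost without control replicate 1 or 2 and without miR-322/-503 replicate 2 or 3 (adjusted p = 0.0918, 0.0862, 0.0855 and 0.0833 in edgeR). Without either of the latter, 1 of the 18 was higher.

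Of 15 tested genes of glucocorticoid action, 7 were lower and 2 were higher, with a median log2 fold change of -0.36, the lowest of the 7 lists. Hsd11b1, the enzyme that regenerates active glucocorticoid inside cells, fell from 73.1 ± 3.28 to 18.8 ± 1.13 CPM (log2 fold change -1.96). Sgk1, a kinase induced by glucocorticoids and also a member of the PI3K list, fell from 78.1 ± 2.66 to 25.9 ± 1.57 CPM (log2 fold change -1.59). Tsc22d3, or GILZ, a classical target of the receptor, went the other way, from 49.2 ± 3.89 to 78.0 ± 2.17 CPM (log2 fold change 0.67), and Errfi1 rose by 0.46. The receptor gene Nr3c1 and the targets Per1, Klf9 and Mt2 were not called. Mt2 counts are uncertain, as an antisense gene (Gm45774) shares its exons.

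**Figure D4:**
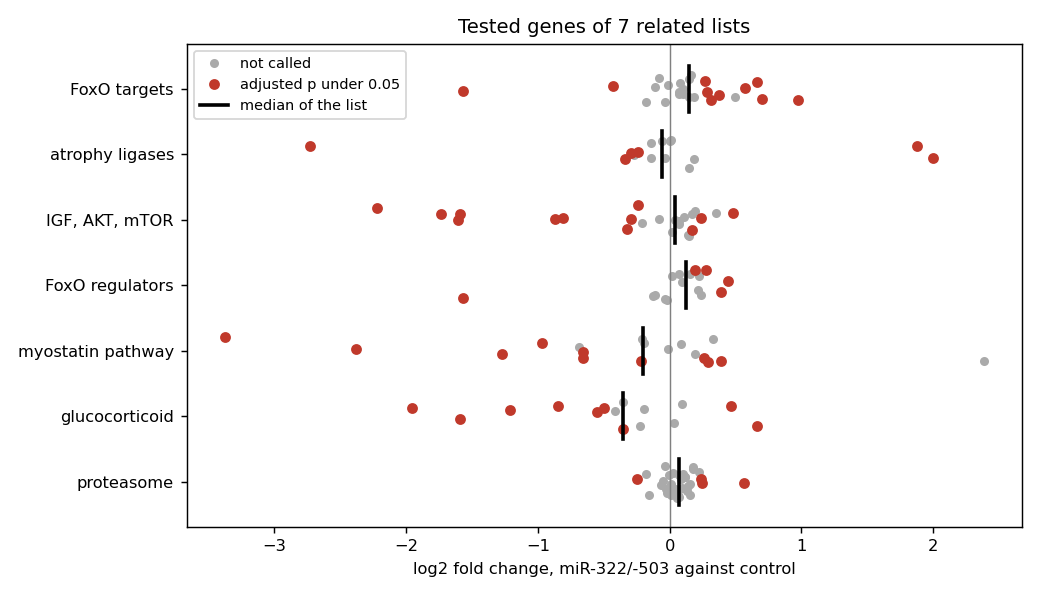
Log2 fold changes (x axis, miR-322/-503 against control) of the tested genes of 7 lists (rows); each point is a gene, red where the adjusted p-value was under 0.05 in edgeR, and black bars are list medians. Medians ran from -0.36 for glucocorticoid action to 0.14 for FoxO targets, proteasome genes lay between -0.25 and 0.56, and every list held genes called in both directions.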

How the data were processed

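RNA-seq was measured in 6 libraries of day 4 cells, 3 control and 3 miR-322/-503, grouped by their titles. Per the methods and the submitters' processing notes, the authors used Trim Galore for trimming, HISAT2 for alignment to GRCm38 and StringTie for the tables (versions and annotation are not given in the sources used here). The deposited matrix holds unscaled estimated counts per gene, given as whole numbers. Per library, a second deposited table gives coverage (signal per base, used to measure the bases behind a count), FPKM (not used) and TPM, which StringTie sums over a gene's transcripts. Strand use in counting is not given, so antisense partners cannot be told apart.

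Estimated counts had a median of 74.99 covered bases each in single-transcript genes, and low genes most often covered 300 bases, hence 4 counts per read pair. Total estimated counts were 78219596 to 86470394 in the control and 73532084 to 92157388 with miR-322/-503. Replicates differed by more than sampling noise (chi-square per degree of freedom 14.8 to 21.3). The methods state biological and technical replicates for the assays in general, but neither they nor the labels say that these libraries came from separate cultures, so p-values measure the spread between these libraries.

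Counts were tested with edgeR 4.0.16 in R 4.3.3 (filterByExpr, TMM, glmQLFit, glmQLFTest, Benjamini-Hochberg over 18140 genes). The standard error is the size of the log2 fold change divided by the square root of F. CPM used TMM-normalized library sizes. Shares were compared by exact two-sided permutation (scipy 1.17.1). In simulated counts of this comparison, edgeR recovered 151 of 200 genes given log2 fold changes of 1 and called 7 unchanged genes of 17592 tested. The changed genes were drawn from those with a higher mean count than Klf15 or Trim63, so the recovery does not cover genes that low. In the data 28.8% of tested genes were called, a larger part than was changed in the simulation. Annotation was GENCODE M21 (GRCm38), whose coordinates equal those deposited for all 10 genes. Promoters and microRNAs were taken from RefSeq tables.

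Members and lists were chosen with earlier results of these data known. Named are all 10 genes, the 2 largest rises and 2 largest falls of each list among called genes, and the 3 genes most like Klf15. Other genes of a list were named in its summary after their values were seen. Alternatives were DESeq2 1.42.0, edgeR with its size factors, no low-count filter, a minimum of 10 counts per library, counts divided by 4, limma 3.58.1 on log2(TPM + 1) with a mean of at least 0.5 TPM, a replicate block and leaving out each library. The study's other sequencing set and its RT-qPCR were not analysed here.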

Additional observations from a re-analysis of the deposited data

How the results depend on the processing

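Among values of the named genes recomputed under the alternatives, 430 kept direction and side of the threshold, 56 lost and 2 gained the call, and 1 reversed, that of Fbxo30 without control replicate 2 (its range without single libraries was -0.0139 to 0.2327). Past the cut-off of the study, limma on log2(TPM + 1) called 394 higher and 568 lower genes (against 832 and 959). By its adjusted p 1 of the 10 genes was higher, 1 ligase, 1 PI3K and mTOR gene, 1 FoxO regulator, 1 myostatin pathway gene and 1 proteasome gene were higher, and 0 proteasome genes were lower in limma (2 at an unadjusted p under 0.05). Without a filter, 1 of the 10 genes and 2 FoxO regulators were higher. With counts divided by 4, 5 proteasome genes were higher. The causes were not tested.

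When single libraries were omitted in turn, 1792 to 2056 genes were higher and 2217 to 2491 lower, and past the study's cut-off 715 to 806 and 886 to 965. Of the 10 genes, 1 to 2 were higher and 2 to 4 lower. Higher and lower were 1 to 2 and 2 to 4 ligases, 6 to 7 and 2 FoxO targets, 1 to 3 and 8 to 9 PI3K and mTOR genes, 1 to 3 and 1 FoxO regulators, 1 to 3 and 5 to 7 myostatin pathway genes, 2 and 6 to 7 glucocorticoid genes, and 2 to 3 and 0 to 1 proteasome genes (where edgeR called 0 lower, 1 to 2 were at an unadjusted p under 0.05). The difference in share was -11.6 to -9.24 points for Foxo3, 11.3 to 13.4 for Foxo4 and -2.71 to -0.580 for Foxo1.

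Libraries of the same number were not treated as pairs in the main fit, and the labels do not say whether they were. The correlations of their deviations from the group means were 0.131, 0.0687 and 0.0451. The replicate block called 2667 genes higher and 3066 lower, and Ddit4 was called (log2 fold change -0.29, adjusted p = 0.0126 in edgeR), 5 PI3K and mTOR genes and 5 proteasome genes were higher and 2 proteasome genes were lower. The lowest counts were those of Trim63, Klf15 and Mstn.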

Other observations

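The genes whose profile over the 6 libraries was most like that of Klf15, by Euclidean distance of centred log2 CPM, were Gm43012 (distance 0.296), Cilp2 (0.399) and Gm7997 (0.455), with log2 fold changes of -1.60, -1.51 and -1.78. All 3 were low, with 9 to 89 estimated counts per library, and Cilp2 encodes a cartilage matrix protein. Around the other called genes the chromosome was near level. The median log2 fold change of tested genes within 5 Mb was 0.07 for Foxo3 (66 genes), -0.10 for Foxo1 (51 genes), 0.06 for Klf15 (112 genes) and -0.04 for Fbxo32 (47 genes).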
